A study of Mus musculus with 12 samples.

Results

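The transcripts of 10 NF-κB genes were followed in mouse bone marrow-derived mesenchymal stromal cells (MSCs). Of these genes, 5 encode the NF-κB subunits (Nfkb1, Nfkb2, Rela, Relb and Rel). The other 5 are grouped here as inhibitors (Nfkbia, Nfkbib, Nfkbie, Nfkbiz and Tnfaip3). All 10 were taken by gene symbol from the 55487 genes of the count table, and each symbol matched 1 gene. The choice was made with earlier results of these data known. RNA was sequenced in 3 groups of 4 libraries from wild-type C57BL/6 primary MSCs: untreated control MSCs, MSCs pulsed with 50 μM A1 for 6 h, and MSCs pulsed with 50 μM A1 admixed with 1 mg/mL ovalbumin (OVA) for 6 h. A1 is a variant of Accum, a bile acid linked to a nuclear localization signal peptide, here cholic acid and the signal of hnRNPA1, and OVA is a chicken egg white protein used as a model antigen. The MSCs came from the femurs of female mice aged 6 to 8 weeks and had been expanded to passage 9 or 10 before storage. All groups were grown in the same serum-supplemented medium, both treatments were added at the same confluency, the label of A1 + OVA adds an incomplete mention of insulin, and no group received OVA alone. Neither labels nor methods say that the 4 libraries of a group came from separate cultures or animals, so the p-values measure the spread between these libraries, which may be technical.

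NF-κB is a family of dimeric transcription factors that carry a shared Rel homology domain. In resting cells, IκB proteins such as IκBα (Nfkbia), IκBβ (Nfkbib) and IκBε (Nfkbie) hold the dimers in the cytosol. In the canonical pathway, the IKK complex marks these inhibitors for degradation and releases dimers of RelA with the p50 product of Nfkb1. In the non-canonical pathway, the p100 precursor of Nfkb2 is processed to p52, which enters the nucleus with RelB. IκBζ (Nfkbiz) acts inside the nucleus, and A20 (Tnfaip3) is a ubiquitin-editing enzyme that shuts the signal down. Several of these genes are themselves NF-κB targets, which gives the pathway its feedback loops. In MSCs, NF-κB is known for driving chemokine and cytokine genes after inflammatory stimuli.

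The DNA element bound by these dimers, the κB site, lies close to the start of several of the members. RefSeq promoters, 250 bases before to 50 after a start on GRCm38.p6, were at hand for 7 of the 10 members (Nfkb2, Rela, Rel, Nfkbia, Nfkbib, Nfkbie and Tnfaip3). They were searched on both strands for the 10-base κB consensus: GGG, a purine, any 2 bases, 2 pyrimidines and CC. The letters were found in 5 of these 7 genes, and not in the windows of Rela and Nfkbib. Among all genes with a promoter, 9.55% of 27025 held the consensus in at least 1 promoter. Median GC content was 62.8% in the members' promoters and 52.7% in all promoters. The windows of 4 members are printed 5′ to 3′ on the gene's strand, because their transcripts moved in opposite directions in the comparisons that follow. Nfkbia and Tnfaip3 were shown by rule, as members that changed with A1, and Nfkb2 and Rel were added after their values were seen. The match of Nfkbie, which was called in no comparison, is not printed. Capitals mark the matches, and a run of 11 capitals covers overlapping matches on both strands.
Nfkb2 promoter, chr19:46304678-46304736, plus strand: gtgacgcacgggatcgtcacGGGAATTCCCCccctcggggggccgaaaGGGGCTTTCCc
Rel promoter, chr11:23771031-23771081, minus strand: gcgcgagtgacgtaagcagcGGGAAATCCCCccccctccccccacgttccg
Nfkbia promoter, chr12:55492648-55492696, minus strand: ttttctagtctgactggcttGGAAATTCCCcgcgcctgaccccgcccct
Tnfaip3 promoter, chr10:19015506-19015555, minus strand: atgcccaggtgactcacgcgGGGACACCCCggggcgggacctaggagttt
Tnfaip3 promoter, chr10:19015411-19015442, minus strand: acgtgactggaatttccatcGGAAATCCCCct
The printed matches lie between positions -39 and -2 from the start for Nfkb2 and between -29 and -20 for Nfkbia. The 3 promoters of Nfkb2 gave 5 matches when each was searched on its own, and not all of them are printed. Its promoters at chr19:46305445-46305744 and chr19:46305680-46305979 overlap, and a match in the shared stretch was counted in each of them. Among the matches not printed were those at -236 to -227 and at -225 to -216 from their own starts, the latter in the shared stretch. A match is a description of the sequence; binding was not measured.

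Between 13702348 and 16881995 reads were assigned to genes in a library, with the A1 libraries the shallowest (at most 14347870) and the control libraries at 15644991 or more. Of the 12 MSC markers examined, Cd44, Itgb1, Col1a1, Col1a2, Cxcl12, Pdgfra and Pdgfrb were above 100 CPM (reads of a gene scaled to a fixed library total) in every library, whereas Thy1 had 0 to 17 reads, Nt5e 7 to 14 and Lepr 6 to 16. The MSC markers moved in both directions with A1, with Cd44 (log2 fold change of 1.39) and Itgb1 (0.62) higher and Cxcl12 (-1.37), Pdgfra (-0.99), Ly6a (-0.59) and Col1a2 (-0.23) lower. Of 10 macrophage and leukocyte markers, 8 were too low to be tested. Ptprc had at most 4 reads and Tyrobp 0, and the summed level of the list ran from 9.66 to 10.5 CPM in control, 12.2 to 15.0 with A1 and 10.8 to 13.3 with A1 + OVA, most of it Cd14. The summed level of the MSC markers was 13430 to 14160 CPM in control, 11380 to 11900 with A1 and 11560 to 11980 with A1 + OVA, a sum in which Cxcl12 went from 3910 CPM in control to 1514 with A1 while Itgb1 went from 1451 to 2225. The part of these shifts in the results below was not tested. The 5 endothelial and the 6 B and T cell markers were all too low to be tested. In these bulk samples, a change in the number of cells of a type and a change in RNA per cell cannot be told apart. Levels are given below as CPM after TMM normalization, which rescales each library's total.

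All 10 members were expressed well enough to be tested, at 56 to 1721 reads per library, and their changes were small. Changes were tested with edgeR's quasi-likelihood test with Benjamini-Hochberg adjustment over 11314 genes, written below as adjusted p by edgeR, and called at an adjusted p under 0.05. With A1, 5 of the 10 members were called (Rela and Nfkbiz higher, Nfkb1, Nfkbia and Tnfaip3 lower), where 62.7% of all tested genes were called, 31.7% higher and 31.1% lower. With A1 + OVA, 6 of 10 differed from control (Nfkb2, Rela and Relb higher, Nfkb1, Rel and Nfkbia lower), against 57.6% of all genes, 29.7% higher and 27.9% lower. Between A1 + OVA and A1, Nfkb2 alone of the 10 was called, against 12.9% of all genes, 6.05% higher and 6.81% lower. The libraries of the groups did not overlap for 5 of 10 members with A1 and 5 of 10 with A1 + OVA, against 54.4% and 49.4% of all genes, and for 1 of 10 between the treatments, against 18.1%. The members' shares were thus near those of all tested genes. No member reached an absolute log2 fold change of 0.5 in any comparison, a size that was reached together with the call by 21% of all genes with A1, 17.7% with A1 + OVA and 1.2% between the treatments. The median absolute log2 fold change of the members was 0.15 with A1, against 0.23 for all tested genes, and 0.18 with A1 + OVA, against 0.20. Both treatments were compared with the same 4 control libraries, so their changes are shown side by side and are not independent of each other.

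**Figure D1:**
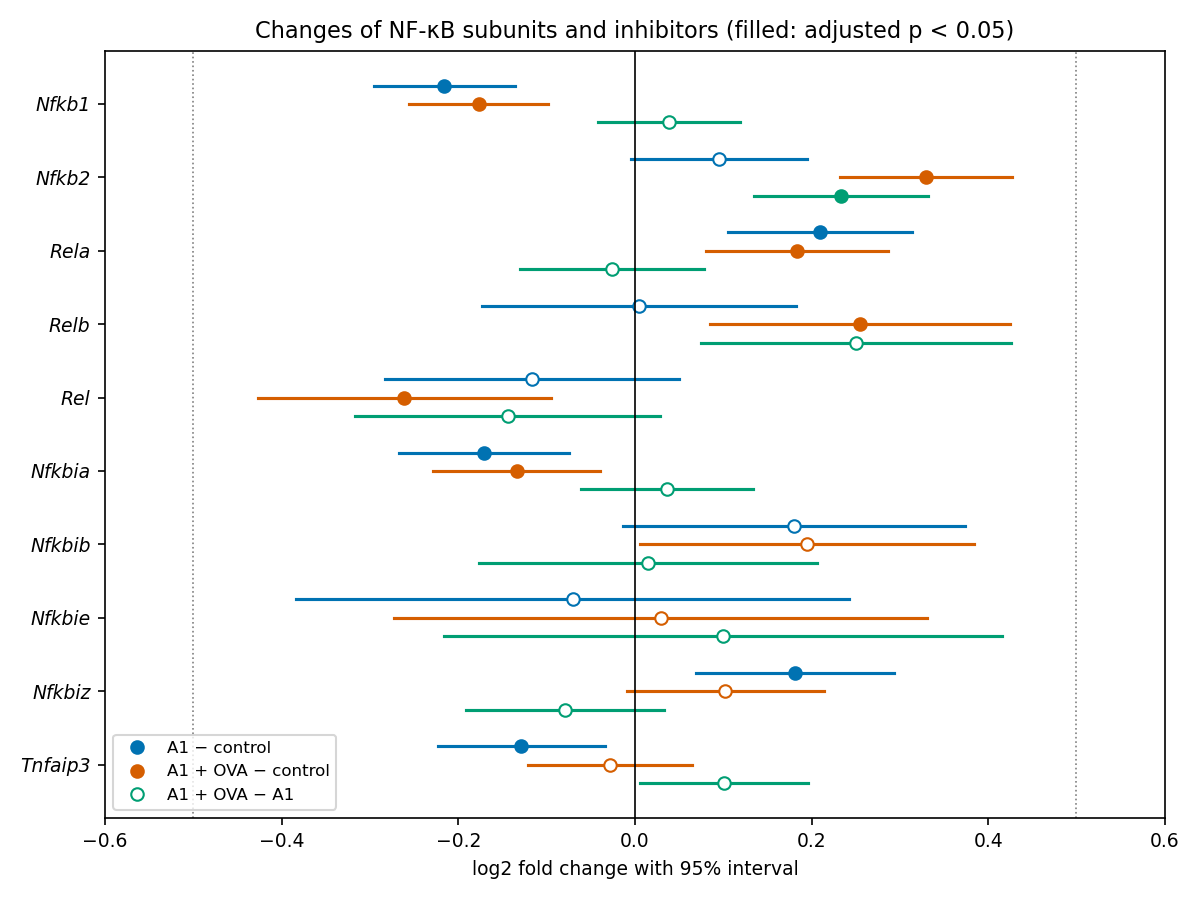
Log2 fold change of each NF-κB subunit and inhibitor (points) with its 95% interval (bars) for A1 against control (blue), A1 + OVA against control (orange) and A1 + OVA against A1 (green). Filled points passed an adjusted p of 0.05 by edgeR, dotted lines mark 0.5 in either direction, and all points lie between -0.26 and 0.33.

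Per kilobase of exon, Nfkbia had the highest level of the family in control MSCs, at 40.5 ± 2.07 CPM per kilobase (SD, n = 4). Rela followed at 20.7 ± 1.25, above Nfkbiz at 12.9 ± 0.651 and Nfkb2 at 12.1 ± 0.56 CPM per kilobase, and the libraries of the latter pair overlapped. Nfkb1, at 8.48 ± 0.301, and Tnfaip3, at 8.2 ± 0.124 CPM per kilobase, also overlapped. The lowest levels were those of Nfkbib (5.28 ± 0.532), Relb (3.91 ± 0.243), Rel (2.47 ± 0.216) and Nfkbie (1.72 ± 0.132 CPM per kilobase), each apart from the next. The place of Nfkb1 depended on the length used: its merged exons span 12061 bases and its longest transcript 4149. With the longest transcript of each gene, Nfkb1 came second at 24.7 CPM per kilobase and overlapped with Rela. Nfkbiz stood above Nfkb2 with A1, at 14.6 ± 0.973 against 13.0 ± 0.707 CPM per kilobase of merged exon. With A1 + OVA, Nfkb2 was the higher of the pair, at 15.2 ± 0.217 against 13.8 ± 0.836 CPM per kilobase. On this scale the pair did not overlap in either treatment, while on the longest transcripts their A1 + OVA libraries overlapped.

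**Figure D2:**
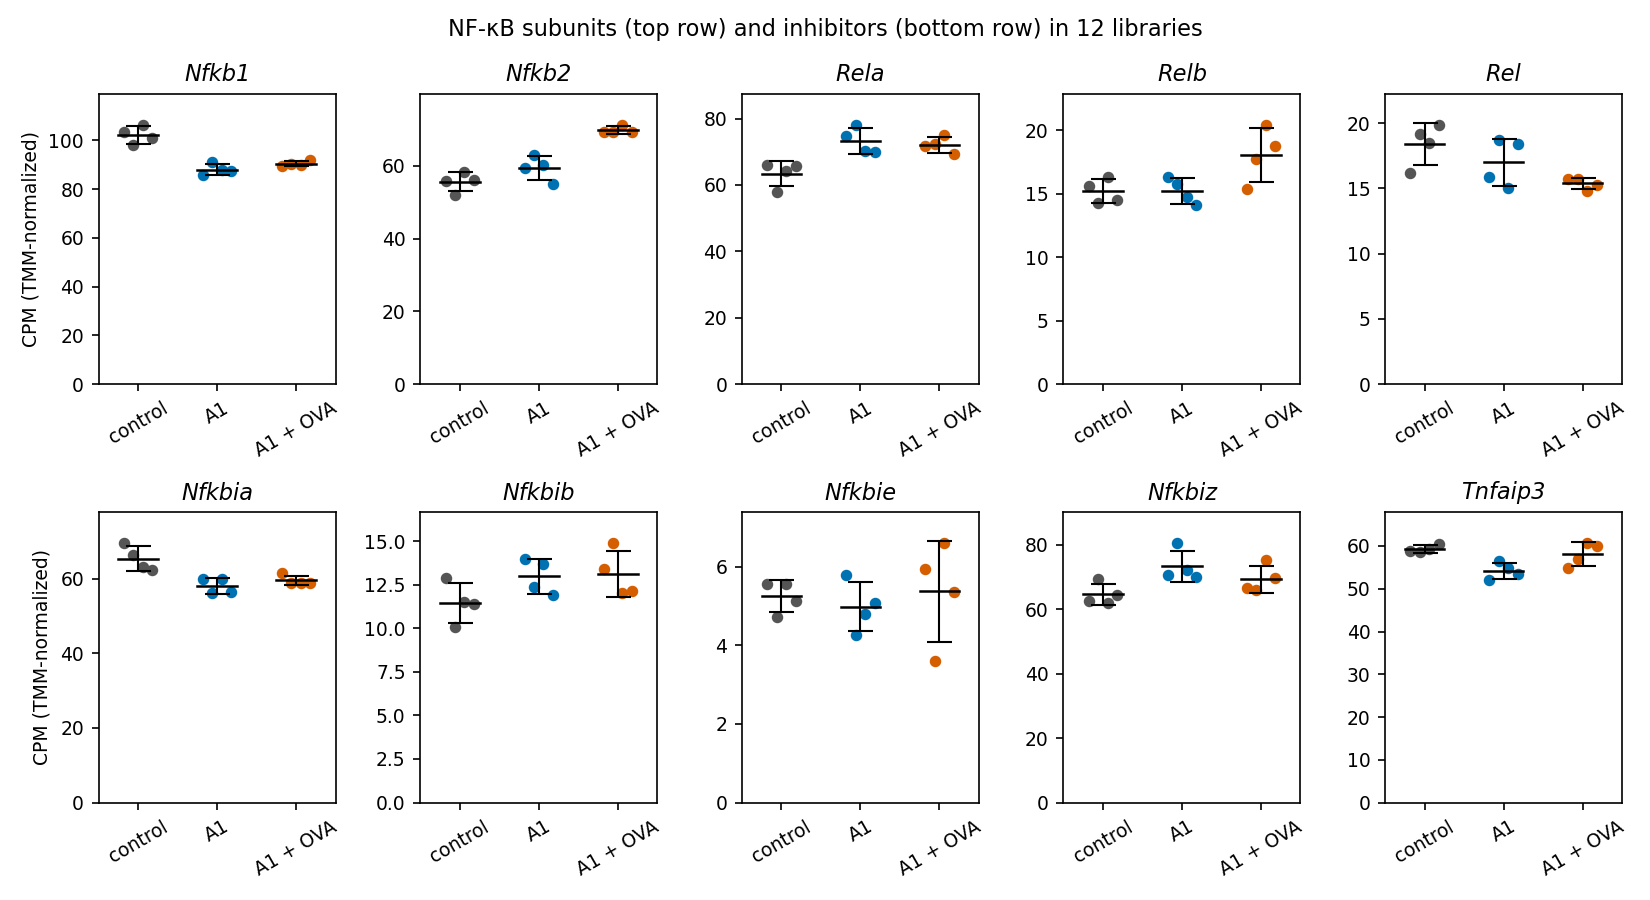
CPM (TMM-normalized, vertical axes from 0) of the 5 subunits (top row) and 5 inhibitors (bottom row) in control, A1 and A1 + OVA libraries, where each point is a library, the long bar the mean and the whiskers 1 SD (n = 4). Nfkb1 and Nfkbia sit lower and Rela sits higher in both treatments than in control, whereas Nfkb2 stands apart in the A1 + OVA libraries.

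The subunits of the canonical pathway moved in opposite directions. Nfkb1 (ENSMUSG00000028163, chr3:135584655-135691547, minus strand), which encodes p105 and its product p50, had 104, 98.0, 106.5 and 101 CPM in the control libraries. It had 85.8, 91.1, 87.9 and 87.4 CPM with A1, and 89.4, 90.4, 90.1 and 92.0 CPM with A1 + OVA. All 8 treated libraries lay below all control libraries. Its log2 fold change was -0.22 (SE 0.038, adjusted p by edgeR = 4.73e-05) with A1 and -0.18 (SE 0.038, adjusted p by edgeR = 0.000397) with A1 + OVA. Rela (ENSMUSG00000024927, chr19:5637483-5648130, plus strand), the main activating subunit, had 66.2, 57.8, 64.2 and 65.6 CPM in control. It rose to 74.8, 78.2, 70.2 and 70.1 CPM with A1 and to 71.7, 72.2, 74.9 and 69.3 CPM with A1 + OVA, so that no treated library reached down to a control library. The log2 fold change of Rela was 0.21 (SE 0.050, adjusted p by edgeR = 0.00108) with A1 and 0.18 (SE 0.050, adjusted p by edgeR = 0.00337) with A1 + OVA. Neither gene was called between the treatments, with 95% intervals of the log2 difference of -0.04 to 0.12 for Nfkb1 and -0.13 to 0.08 for Rela.

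Rel (ENSMUSG00000020275, chr11:23736847-23770970, minus strand), which encodes c-Rel, a subunit best known in lymphocytes, fell with A1 + OVA. Its control libraries had 16.2, 19.2, 18.5 and 19.9 CPM, and its A1 + OVA libraries 15.7, 15.7, 14.8 and 15.3 CPM, all below control. This was a log2 fold change of -0.26 (SE 0.080, adjusted p by edgeR = 0.00791). The A1 libraries had 15.8, 18.7, 15.0 and 18.4 CPM and were spread over the range of both other groups. With A1 alone the log2 fold change was -0.12, with a 95% interval of -0.28 to 0.05, and between the treatments it was -0.14, with an interval of -0.32 to 0.03. Rel had 197 to 324 reads in a library, so counting error alone comes to about 6.27% at its mean count.

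The subunits of the non-canonical pathway were higher with A1 + OVA. Nfkb2 (ENSMUSG00000025225, chr19:46304320-46312385, plus strand), the gene of p100 and p52, had 55.9, 52.1, 58.3 and 56.2 CPM in control and 59.4, 62.9, 60.3 and 55.1 CPM with A1. In the A1 + OVA libraries it had 69.3, 69.5, 71.4 and 69.4 CPM, above every other library. The log2 fold change with A1 + OVA was 0.33 against control (SE 0.047, adjusted p by edgeR = 3.54e-06), the largest change of any member in the 3 comparisons. Against A1 it was 0.23 (SE 0.047, adjusted p by edgeR = 0.00236), a direct test of the difference between the treatments. A1 alone gave 0.10, with an interval of -0.0045 to 0.20, and was not called (adjusted p by edgeR = 0.0895). It was called without A1 replicate 4, the lowest of its group, at 0.12 (adjusted p by edgeR = 0.0352).

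Relb (ENSMUSG00000002983, chr7:19606217-19629438, minus strand), the partner of p52, had 15.6, 14.3, 16.3 and 14.6 CPM in control and 16.3, 15.8, 14.7 and 14.1 CPM with A1. The A1 + OVA libraries had 15.4, 17.7, 20.5 and 18.8 CPM, with replicate 1 inside the control range and the other libraries above it. The log2 fold change with A1 + OVA was 0.26 (SE 0.082, adjusted p by edgeR = 0.011). It rested on A1 + OVA replicate 3, without which it was 0.19 and no longer called (adjusted p by edgeR = 0.0546). With A1 the log2 fold change was 0.00, with an interval of -0.17 to 0.18. Against A1, A1 + OVA gave 0.25 and narrowly missed the threshold (adjusted p by edgeR = 0.054), and without A1 + OVA replicate 1, the shallowest library of its group, the same difference was 0.32 and was called (adjusted p by edgeR = 0.0116). It was also called with no filter on low counts (adjusted p by edgeR = 0.0401) and on counts thinned to the smallest total (adjusted p by edgeR = 0.0438).

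Among the inhibitors that hold NF-κB in the cytosol, Nfkbia was lower in both treatments. Nfkbia (ENSMUSG00000021025, chr12:55489410-55492647, minus strand), the gene of IκBα and a target of NF-κB itself, had 69.5, 66.4, 63.0 and 62.2 CPM in control. It had 59.9, 56.0, 59.8 and 56.3 CPM with A1, and 61.5, 59.0, 58.8 and 58.8 CPM with A1 + OVA. Both treated groups lay below control, although the highest A1 + OVA library came close to the lowest control library. The log2 fold change was -0.17 (SE 0.046, adjusted p by edgeR = 0.00304) with A1 and -0.13 (SE 0.046, adjusted p by edgeR = 0.0159) with A1 + OVA. The latter was -0.10 and not called without control replicate 1 (adjusted p by edgeR = 0.0633), the control library with the most Nfkbia. Between the treatments the log2 difference had an interval of -0.06 to 0.13.

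Nfkbib and Nfkbie, the genes of IκBβ and IκBε, were not called in any comparison. Nfkbib (ENSMUSG00000030595, chr7:28758251-28767512, minus strand) ran from 10.0 to 12.9 CPM in control, 11.9 to 13.96 with A1 and 12.01 to 14.9 with A1 + OVA, so that the groups overlapped. Its log2 fold change was 0.18 with A1 and 0.19 with A1 + OVA, with adjusted p by edgeR of 0.0972 and 0.0721. Without control replicate 1, which had the most Nfkbib of its group, these became 0.24 and 0.26 and were called (adjusted p by edgeR = 0.0353 and 0.0258). The A1 + OVA change was also called without A1 + OVA replicate 3, at 0.24 (adjusted p by edgeR = 0.0447). Nfkbie (ENSMUSG00000023947, chr17:45555703-45563169, plus strand) was the member with the fewest reads, 56 to 100 in a library, and ran from 3.61 to 6.60 CPM over all libraries. Both ends of that range were A1 + OVA libraries, and the intervals of its log2 fold change, -0.38 to 0.24 with A1 and -0.27 to 0.33 with A1 + OVA, were the widest of the members.

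Nfkbiz and Tnfaip3, which act on NF-κB in the nucleus and on its upstream signal, changed in opposite directions with A1. Nfkbiz (ENSMUSG00000035356, chr16:55811375-55838899, minus strand) had 62.6, 69.2, 62.0 and 64.4 CPM in control and 70.4, 80.5, 72.1 and 70.1 CPM with A1. All A1 libraries were above control, by a log2 fold change of 0.18 (SE 0.054, adjusted p by edgeR = 0.00608). The A1 + OVA libraries had 66.5, 66.0, 75.1 and 69.6 CPM and overlapped both other groups, at a log2 fold change of 0.10 from control with an interval of -0.01 to 0.21. That value was called without control replicate 2, the highest of its group, at 0.14 (adjusted p by edgeR = 0.0399).

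Tnfaip3 (ENSMUSG00000019850, chr10:19000910-19015657, minus strand) had 58.8, 58.6, 59.2 and 60.6 CPM in control, a narrow spread. The A1 libraries had 52.1, 56.5, 54.8 and 53.5 CPM, all below control. The log2 fold change was -0.13 (SE 0.045, adjusted p by edgeR = 0.0179), and without A1 replicate 1, the lowest of its group, it was -0.12 and not called (adjusted p by edgeR = 0.0539). With A1 + OVA, Tnfaip3 had 54.9, 56.9, 60.7 and 60.0 CPM, which straddled the control range. The difference between the treatments, 0.10 with an interval of 0.01 to 0.20, did not pass the adjustment (adjusted p by edgeR = 0.157). Between A1 + OVA and A1, 0 of the 5 inhibitors were called by edgeR, where 12.9% of all tested genes were. Of the 5, 1 (Tnfaip3) had an unadjusted p under 0.05, and DESeq2 called 0 as well.

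Ratios of read counts within a library do not depend on how libraries are scaled. They were chosen after the values of the members were seen and are given as a description. The ratio of Nfkb2 to Nfkb1 was 0.544 ± 0.0107 in control, 0.675 ± 0.0298 with A1 and 0.773 ± 0.0155 with A1 + OVA (SD, n = 4), and no group overlapped with another. With A1, Nfkb2 itself was not called and Nfkb1 was lower. The ratio of Relb to Rela was 0.24 ± 0.0143 in control, 0.208 ± 0.00802 with A1 and 0.251 ± 0.0276 with A1 + OVA; its A1 libraries lay below all control libraries, and its A1 + OVA libraries spanned both. For Rel to Rela, the ratio was 0.292 ± 0.0364 in control, 0.232 ± 0.0238 with A1 and 0.214 ± 0.011 with A1 + OVA, and only the A1 + OVA libraries cleared the control range. Nfkbia to Rela, the inhibitor against its main partner, stood at 1.03 ± 0.0883 in control, 0.793 ± 0.0562 with A1 and 0.827 ± 0.0333 with A1 + OVA. Every treated library was below every control library in that ratio, and in the ratio of Nfkbia to Nfkbiz as well, which was 1.01 ± 0.0695, 0.795 ± 0.0685 and 0.861 ± 0.0615 in the same order.

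**Figure D3:**
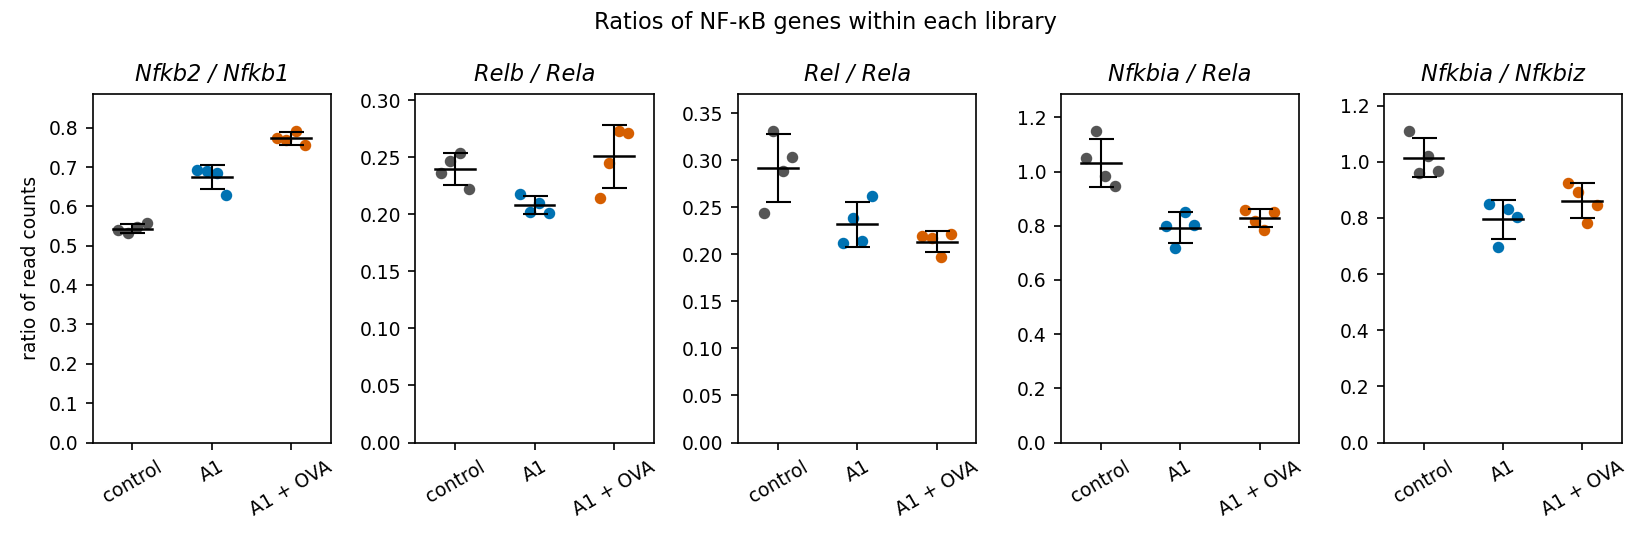
Ratio of read counts of a pair of NF-κB genes in each library (points), with the mean (long bar) and 1 SD (whiskers, n = 4) for control, A1 and A1 + OVA, on vertical axes from 0. Nfkb2 to Nfkb1 goes from 0.544 in control to 0.675 with A1 and 0.773 with A1 + OVA, and both ratios with Nfkbia on top are lower in all treated libraries.

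Correlations between members within the groups were not tested and are given as a description. Over the 12 libraries, deviations from the group means had a Pearson r of 0.76 between Nfkb2 and Rela, 0.70 between Nfkb1 and Nfkb2, and 0.67 between Nfkbiz and Tnfaip3. Relations in the opposite direction were -0.77 between Rel and Nfkbia and -0.65 between Nfkbib and Nfkbiz. These are the 5 largest of 45 pairs, and the points share library depth and normalization. The genes whose log2 CPM over the 12 libraries was most like that of Rela were Mif (r = 0.98), Sf3a2 (0.963) and Tesk1 (0.961). Among those most like Nfkb1 were Gstm1 (r = 0.978) and Hadh (0.971). In all, 74 tested genes reached an r of 0.9 with Rela and 602 with Nfkb1.

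Upstream of the subunits, some receptors had larger log2 fold changes than any of the subunits. Of 24 receptors and adaptors, 21 were tested, and with A1 6 were higher (Irak2, Myd88, Ripk1, Tnfrsf12a, Traf3 and Traf5) and 4 lower (Irak3, Tlr2, Tlr4 and Tnfrsf1a), or 10 of 21, where 62.7% of all tested genes were called. Tnfrsf12a, the receptor of TWEAK and an activator of non-canonical NF-κB, went from 76.1 to 90.9 CPM in control to 228 to 252 CPM with A1, a log2 fold change of 1.57 (adjusted p by edgeR = 7.91e-17). With A1 + OVA it stood at 206.5 to 220 CPM, a log2 fold change of 1.39 from control (adjusted p by edgeR = 6.79e-16). Traf5, a TNF receptor adaptor, rose from 10.4 ± 1.16 CPM to 16.9 ± 1.14 with A1 and 14.1 ± 1.13 with A1 + OVA (SD, n = 4). Tlr2, a receptor for bacterial lipoproteins, fell from 115 ± 2.92 CPM to 46.4 ± 1.70 with A1 and 47.0 ± 4.80 with A1 + OVA. Irak3, a brake on Toll-like receptor signals, fell by 0.88 on the log2 scale with A1 and 0.83 with A1 + OVA. With A1 + OVA, 7 of 21 were higher and 5 lower than control, where 57.6% of all genes were called. Between the treatments 4 were lower with A1 + OVA (Il1r1, Ripk1, Tnfrsf12a and Traf5), or 2 without A1 + OVA replicate 4. In that comparison 12.9% of all genes were called, 6.81% lower. Their median change, on the log2 scale, came to 0.01 with A1 and 0.03 with A1 + OVA, beside 0.00 for all tested genes in both. Cd40, Tnfrsf11a and Traf1 were too low to be tested, at no more than 5 reads in a library.

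The subunits of the IKK complex did not move together. Chuk, which encodes the kinase IKKα, rose from 164 ± 5.03 CPM to 203 ± 5.50 with A1 and 212 ± 5.28 with A1 + OVA (log2 fold changes of 0.31 and 0.37). Ikbkg, the gene of the regulatory subunit NEMO, fell from 85.4 ± 1.68 CPM to 71.6 ± 1.81 with A1 (log2 fold change of -0.25) and to 79.2 ± 1.47 with A1 + OVA (-0.11). Map3k3, an upstream kinase, had log2 fold changes of 0.29 and 0.21. Ikbke, the gene of the related kinase IKKε, fell by 0.47 on the log2 scale with A1 (adjusted p by edgeR = 0.000162), and with A1 + OVA its value was -0.19, which was not called (adjusted p by edgeR = 0.0703). Of the 12 kinases and partners in the list, all tested, 4 were higher with A1 (Chuk, Ikbkb, Map3k3 and Tab2) and 3 lower (Ikbke, Ikbkg and Tbk1), against 62.7% of all genes called, with a median log2 fold change of 0.09. In A1 + OVA libraries the counts were 4 higher and 2 lower, against 57.6% of all genes, and the median 0.05. Between the treatments 1 of the 12 was called, where 12.9% of all genes were. It was Ikbkg, higher with A1 + OVA by 0.15 (adjusted p by edgeR = 0.0161). That count was 0 without A1 replicate 1 or without A1 + OVA replicate 4, and 2 without control replicate 1, A1 replicate 2 or A1 + OVA replicate 1.

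Some regulators that share the work of A20 had larger log2 fold changes than A20 itself. Tnip1, which encodes a ubiquitin-binding partner of A20, fell from 67.8 ± 2.88 CPM in control to 43.6 ± 2.96 with A1 and 44.2 ± 0.623 with A1 + OVA, with log2 fold changes of -0.64 and -0.61 (adjusted p by edgeR = 4.18e-10 and 6.53e-10). Rnf11, another member of the A20 complex, rose from 165 ± 6.99 CPM to 233 ± 11.6 with A1 and 226 ± 10.5 with A1 + OVA. Tnip2 rose as well, with log2 fold changes of 0.24 and 0.37. Birc2, a ubiquitin ligase known as cIAP1, fell by 0.46 and 0.35 on the log2 scale. Of 14 ubiquitin editors and feedback genes, all tested, 2 were higher and 3 lower with A1, where 62.7% of all genes were called, and 2 higher and 4 lower with A1 + OVA, where 57.6% were. The list's medians were -0.01 and 0.00. Between the treatments edgeR and DESeq2 called 0 of the 14, with 1 gene at an unadjusted p under 0.05, where edgeR called 12.9% of all genes.

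Of 8 other IκB proteins and nuclear regulators, 6 were tested, and Bcl3 and Nfkbid, genes of nuclear IκB proteins, had at most 7 reads in a library. Zc3h12a, the gene of an RNase that degrades inflammatory mRNAs, fell from 65.2 ± 3.83 CPM to 53.5 ± 0.834 with A1, a log2 fold change of -0.29 (adjusted p by edgeR = 1.65e-05). With A1 + OVA it had 66.5 ± 1.06 CPM, higher than with A1 by 0.31 (adjusted p by edgeR = 0.000124), and its log2 difference from control had an interval of -0.06 to 0.12. Nkrf, which encodes a repressor of NF-κB, was higher by 0.25 with A1 (adjusted p by edgeR = 0.00172) and by 0.16 with A1 + OVA (adjusted p by edgeR = 0.0407). With A1 these 2 of 6 were the only genes of the list that were called, against 62.7% of all genes. With A1 + OVA, 2 were called (Nkiras1 and Nkrf, both higher), against 57.6% of all genes, and 1 without control replicate 1 or 4, A1 replicate 1, 3 or 4, or A1 + OVA replicate 2 or 3. Median log2 fold changes were 0.10 with A1 and 0.05 with A1 + OVA.

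Known target genes of NF-κB went in both directions, some of them strongly. Of 31 listed, 22 were tested, and with A1 10 were higher (Bcl2l1, Csf1, Gadd45b, Ier3, Lcn2, Lif, Mmp13, Plau, Ptgs2 and Tnfaip2) and 9 lower (Ccl2, Ccl7, Cxcl1, Cxcl5, Cxcl10, Il6, Irf1, Sod2 and Vcam1). Counted in both directions, 19 of 22 were called, where 62.7% of all tested genes were. The list was drawn up with earlier results of these data known, so this share and the list's medians are given as a description. Ptgs2, the gene of the prostaglandin-forming enzyme COX-2, went from 37.6 to 48.4 CPM in control to 127 to 162 with A1 and 155 to 208 with A1 + OVA, with log2 fold changes of 1.79 and 2.06 (adjusted p by edgeR = 2.06e-13 and 1.93e-14). Ier3, an early stress gene, rose from 18.6 ± 0.359 CPM to 54.5 ± 4.49 and 52.6 ± 1.55 (log2 fold changes of 1.55 and 1.5). Cxcl1, a neutrophil chemokine, fell from 190 to 214 CPM in control to 36.6 to 42.6 with A1 and 54.9 to 59.4 with A1 + OVA, with log2 fold changes of -2.34 and -1.80 (adjusted p by edgeR = 3.22e-19 and 1.08e-17). Cxcl10, a chemokine better known as an interferon target, fell by 1.05 on the log2 scale with A1 and by 0.44 with A1 + OVA, on 13 to 50 reads in a library.

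With A1 + OVA, 9 of the 22 target genes were higher than control and 7 lower, where 57.6% of all genes were called. Of the 22, 5 were higher (Ccl2, Ccl7, Cxcl1, Gadd45b and Ptgs2) and 1 lower (Mmp13) than with A1 alone, where 12.9% of all genes were called. Their median change, on the log2 scale, came to 0.12 with A1 and 0.06 with A1 + OVA. The median absolute log2 fold change was 0.53 with A1, beside 0.23 for all tested genes, and 0.48 with A1 + OVA, beside 0.20. The 9 target genes that were not tested included Tnf (at most 1 read in a library), Il1b, Csf2 and Nos2 (4), Icam1 and Csf3 (3) and Cxcl2 (1). At this depth their transcripts were barely detectable or not detectable in any group. Il6, Cxcl5 and Lif, all with few reads, were picked after their values were seen. Il6 had 18 to 25 reads in control, 4 to 9 with A1 and 11 to 14 with A1 + OVA. Cxcl5 had 14 to 33 reads in control, 0 to 1 with A1 and 0 to 2 with A1 + OVA. Lif went the other way, with 4 to 10 reads in control, 11 to 27 with A1 and 23 to 33 with A1 + OVA.

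**Figure D4:**
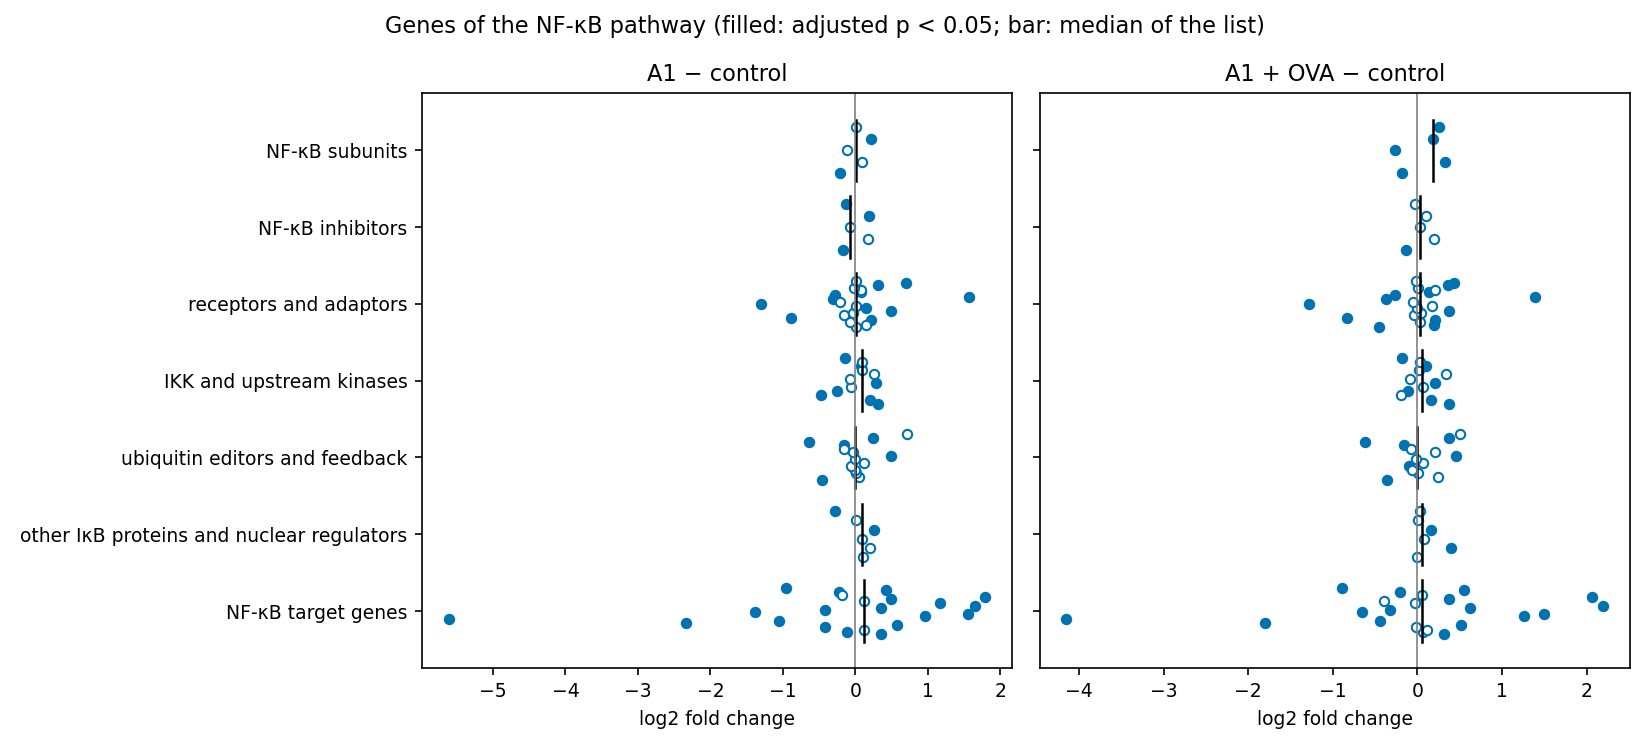
Log2 fold change of each tested gene (points) of the NF-κB subunits, inhibitors and 5 further lists of the pathway for A1 against control (left) and A1 + OVA against control (right), with filled points at an adjusted p under 0.05 by edgeR and a black bar at each list's median. The subunits and inhibitors lie within 0.33 of 0, while target genes run past 1.5 upward and -1.7 downward, and the leftmost point of each panel is Cxcl5, whose fitted value rests on 0 to 2 reads per treated library.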

How the data were processed

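RNA was measured in 12 libraries, 3 groups of 4, grouped by sample title. The authors aligned strand-specific paired-end reads to GRCm38 with STAR (2.7) and deposited raw featureCounts (2.0) counts per gene, without normalization. From these counts, protein-coding genes (GENCODE M21, which holds 99.53% of the identifiers) that passed filterByExpr were scaled by TMM and compared in edgeR (4.0.16, under R 4.3.3) by its quasi-likelihood test, with all groups in one fit and Benjamini-Hochberg adjustment over 11314 genes. Log2 CPM used a prior count of 2, and scripts were tested on simulated data. DESeq2 (1.42.0), other filters and scalings, thinned counts, a replicate block and each library left out were alternatives.

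The members and gene lists were chosen with earlier results of these data known. All members were named, and from each other list up to 2 genes with the largest increase and 2 with the largest decrease with A1 among those called whose mean log2 CPM was 1 or more, and the 3 genes most like a member; exceptions are stated, and a gene that this rule selects is not reported here. Replicates differed by 1.92 to 6.87 times counting variance, so none was a copy. Depth of 13702348 to 16881995 counts and 4 libraries per group limit the precision. No protein sequences were used here.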

Additional observations from a re-analysis of the deposited data

Results flagged for a closer look

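A library stood apart from the other 3 of its group by Dixon's criterion in 5 of 84 groups of values examined, and chance alone flags about 1 in 20 groups. For the members these were Nfkb2 in A1 + OVA replicate 3 (71.4 CPM, the highest) and Nfkbia in A1 + OVA replicate 1 (61.5 CPM, the highest), of 30 member groups. For genes of the other lists they were the lowest control library of Irak3 (3.84 CPM), the lowest control library of Birc2 (27.5 CPM) and the lowest A1 library of Ier3 (47.8 CPM).

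By the direct test of A1 + OVA against A1, 7 of the NF-κB pathway genes given with values in the report were called. The genes examined for this were the 10 members and 18 genes of the other lists. Of all tested genes, 12.9% were called in the same test. The log2 differences were 0.23 for Nfkb2, -0.18 for Tnfrsf12a, -0.26 for Traf5, 0.15 for Ikbkg, 0.31 for Zc3h12a, 0.27 for Ptgs2 and 0.54 for Cxcl1. Of the pathway genes that the report names without values, 6 more were called in that test, with log2 differences of -1.20 for Mmp13, -0.46 for Il1r1, -0.15 for Ripk1, 0.29 for Gadd45b, 0.40 for Ccl7 and 0.18 for Ccl2.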

How the results depend on the processing

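Every member kept its direction under all 20 alternatives wherever its change was called. The counts of members called against control stayed within 1.5 times the reported count in all 20 (4 to 6 with A1, 6 to 7 with A1 + OVA, with each library left out in turn). Between the treatments, 2 members were called with no filter on low counts and with thinned counts, and 1 to 2 with a library left out. For receptors and adaptors that count was 2 to 4 with a library left out. For IKK and upstream kinases it was 2 with no filter, with thinned counts and with the replicate block, and 0 to 2 with a library left out. For other IκB proteins and nuclear regulators with A1 + OVA against control it was 1 with DESeq2, upper-quartile normalization, no filter, non-coding genes included, a fit of only the 2 groups and thinned counts, and 1 to 2 with a library left out. The cause was not tested.

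Samples with the same replicate number did not deviate together (mean r of 0.021 over 12 pairs, against -0.007 over 36 pairs with other numbers), and a sample correlated best with its own number in 6 of 24 cases. With the replicate block, 5, 6 and 1 members were called, as without it. Nfkbie, with 56 to 100 reads, is the member for which depth limits the precision most.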
